A study of Homo sapiens with 14 samples.

Results

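The transcripts of 8 genes that build or border the nuclear paraspeckle were followed through 7 groups of human 293 Flip-In T-REx cells. The genes are the long non-coding RNAs NEAT1 and MALAT1 and the protein genes NONO, SFPQ, PSPC1, MATR3, RBM14 and HNRNPK. They are 8 of 22410 genes in the deposited tables, chosen as nuclear RNAs and as proteins of paraspeckles or that bind edited RNA. The choice was made with earlier results of these data known. Each gene is represented by its transcript entry with the highest mean level. In these data NEAT1 was lower in the line with SA1Q than in the line with SA2Q (2.75% of all genes passed the test). PSPC1 was lower in SA1Q cells than in empty-vector cells (2.8% of all genes passed). Neither result passed under every alternative fit, and for a difference over all 7 groups 0 of the 8 passed. The other 6 genes passed the test in none of the 11 comparisons between groups.

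Paraspeckles are nuclear bodies that form on the long form of NEAT1. A heterodimer-forming family of RNA-binding proteins, NONO, SFPQ and PSPC1, coats that RNA, HNRNPK favours the making of the long form, and RBM14 is needed for the bodies to assemble. NONO, together with SFPQ and the nuclear matrix protein MATR3, is known to bind RNA that carries many inosines, the product of adenosine deaminases acting on RNA (ADARs). MALAT1 lies beside NEAT1 on the same chromosome and collects in nuclear speckles, bodies rich in splicing factors.

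Where a NEAT1 or MALAT1 transcript ends decides whether it has a poly(A) tail, and only polyadenylated RNA was selected for these libraries. For that reason the 3′ ends are shown, 100 bases each, read 5′ to 3′ from GENCODE release 29 transcripts. The first is the end of the short form of NEAT1, bases 3636 to 3735, with the poly(A) signal AATAAA in capitals. The others are the end of the long form, bases 22644 to 22743, and bases 8256 to 8355 of the 8708-base MALAT1 transcript, with the 16 letters that both share and the GCAAAA after them in capitals.
NEAT1 short form end: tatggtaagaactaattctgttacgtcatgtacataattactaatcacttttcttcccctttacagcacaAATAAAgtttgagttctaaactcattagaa
NEAT1 long form end: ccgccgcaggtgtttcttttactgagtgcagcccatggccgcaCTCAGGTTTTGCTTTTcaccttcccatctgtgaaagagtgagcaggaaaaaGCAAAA
MALAT1 processed end: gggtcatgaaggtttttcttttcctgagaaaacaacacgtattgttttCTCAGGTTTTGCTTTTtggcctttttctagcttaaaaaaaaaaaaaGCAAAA
The signal AATAAA starts 30 bases from the end of the short form, and neither of the other windows holds it. It was found in the last 100 bases of 26.9% of 203677 transcripts, searched on the transcript strand. The shared run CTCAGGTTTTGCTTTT occurred in the last 100 bases of 1 transcript, the long form itself, because the MALAT1 model goes on for 353 bases after the window. GCAAAA, which does not overlap the run, occurred in the last 100 bases of 3.81% of transcripts. The U-rich run and the A-rich tail are known to pair in a triple helix that protects ends cut by RNase P.

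RNA was sequenced from cells that hold 1 insertion site for a transgene. The site carried a SNAP-ADAR gene or, in ctrl, an empty vector. A SNAP-ADAR joins the SNAP tag, to which a modified guide RNA can be bonded, to the deaminase part of ADAR1 (SA1) or ADAR2 (SA2), and the Q forms have glutamate exchanged for glutamine, which makes the enzyme more active. The groups, with 2 libraries each and 14 in all, were ctrl, SA1Q and SA2Q without guide and, with guide, SA1+gRNA, SA1Q+gRNA, SA2+gRNA and SA2Q+gRNA. The series was designed to look for off-target editing, and its design text calls the 2 libraries of a group biologically independent. SA1 and SA2 were sequenced with guide only and ctrl without, so enzyme and guide cannot be told apart where a group with guide is set against ctrl. The sources used here do not say whether a line was 1 clone, what the guide targeted or how the transgene was switched on.

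Depth ran from 43.0 to 130.1 M fragments. The library with the most, SA1+gRNA replicate 2, held only even counts, and its total divided by 2 is 65.1 M. Why its counts were even was not tested. ADAR stood at 324 ± 23.3 CPM in ctrl (SD, n = 2) and at 1092 to 1514 CPM on average in the groups with an ADAR1 transgene, and ADARB1, which encodes ADAR2, at 33.3 ± 5.59 CPM in ctrl and 974 to 1162 CPM in the groups with an ADAR2 transgene, as labelled. CPM values are counts relative to the TMM-scaled library total, on the usual scale of that unit. On the first principal component (24.7% of variance) ctrl replicate 1 (-39.7) and SA1Q+gRNA replicate 1 (-43.9) stood apart from the other 12 libraries (0.3 to 13.7). The pre-ribosomal RNA RNA45SN5 ran from 2372 to 11992 CPM. Markers of 293 cells summed to 1543 to 1895 CPM, and 4 of 4 markers of endothelial cells, 4 of 5 of fibroblasts and 2 of 4 of blood cells stayed under 1 CPM in every library. The other markers were COL1A1 of the fibroblast list (4.93 to 8.43 CPM) and CD68 (10.7 to 21.8 CPM) and LCP1 (110.2 to 163 CPM) of the blood list.

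The 8 genes covered a wide range of abundance. Per kilobase of transcript, HNRNPK had the highest mean level at 345 CPM per kb, followed by NONO at 320, SFPQ at 207 and MATR3 at 136 CPM per kb. PSPC1, the least abundant of the NONO family, stood at 39.6 and RBM14 at 22.9 CPM per kb. The RNAs were lowest, NEAT1 at 12.6 and MALAT1 at 1.33 CPM per kb. HNRNPK and NONO had ranges that met, 323 to 367 and 307 to 334 CPM per kb, whereas every other step in this order was without overlap over the 14 libraries. For NEAT1 and MALAT1 these are levels after poly(A) selection, and how far RNA without a poly(A) tail was lost from them was not tested.

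**Figure D1:**
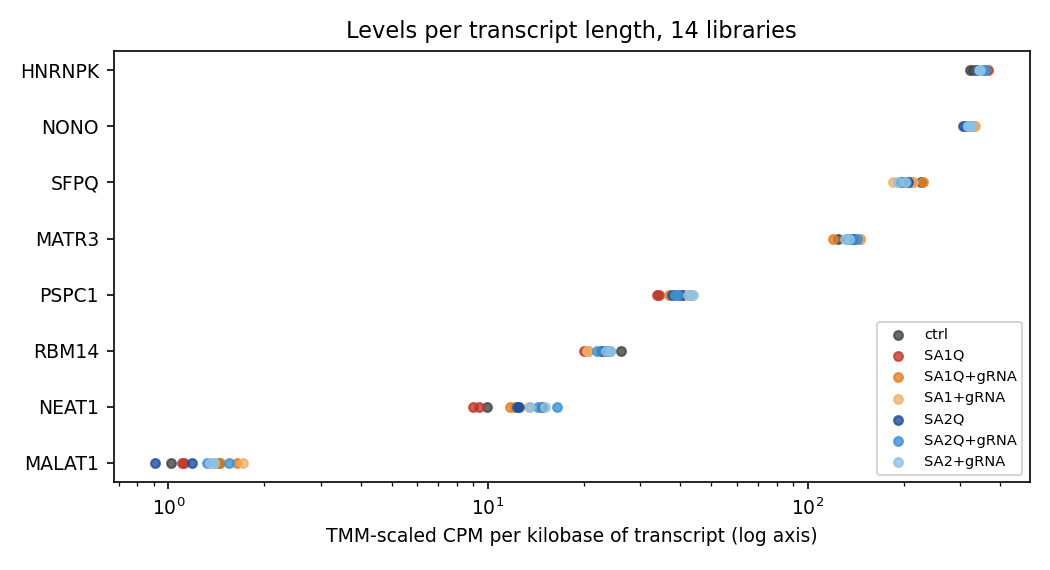
Each point is 1 of 14 libraries, coloured by group, and the horizontal log axis gives TMM-scaled CPM per kilobase of transcript. From MALAT1 (mean 1.33 CPM per kb) to HNRNPK (345 CPM per kb), neighbouring genes are separated in all libraries except NONO and HNRNPK.

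The RNAs also varied most between libraries. The coefficient of variation (CV) over 14 libraries was 17.7% for MALAT1 and 17.3% for NEAT1, with 1.88 times and 1.83 times between the lowest and the highest library. PSPC1 had a CV of 8.20%, RBM14 of 7.28%, SFPQ of 5.85% and MATR3 of 5.33%. The most even were HNRNPK at 3.38% and NONO at 2.49%. Over the 9277 genes with a mean of 5 to 100 CPM, where NEAT1, MALAT1 and PSPC1 lie, the median CV was 8.96%, and over the 2311 genes at 100 CPM or more, where the other 5 lie, it was 7.19%.

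**Figure D2:**
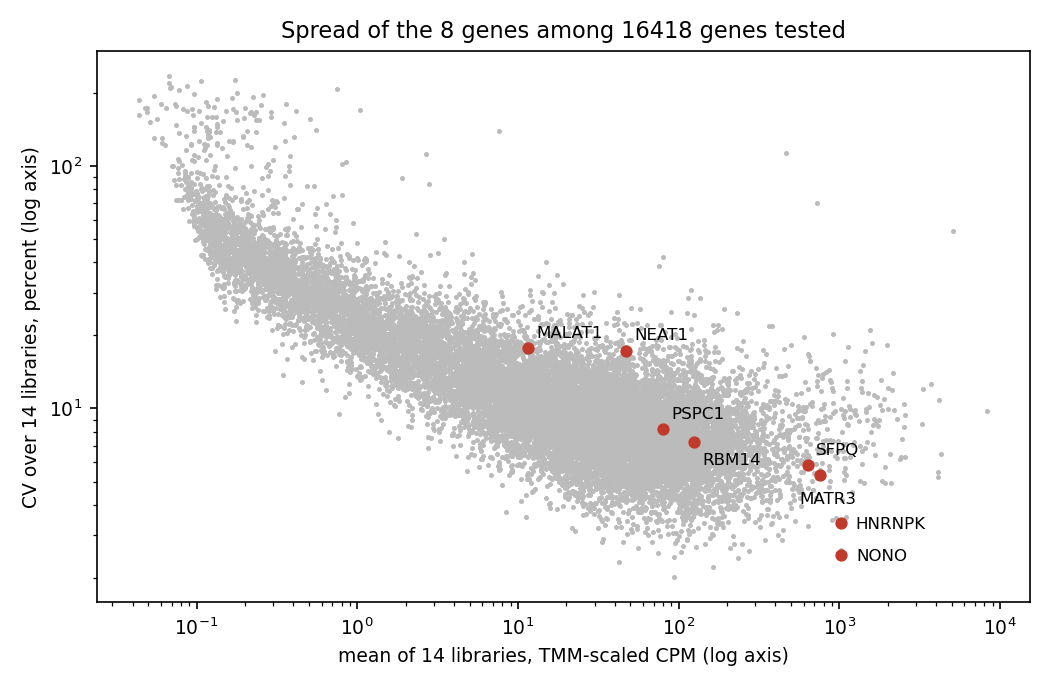
Grey points are the 16418 genes tested and red points the 8 genes, with the mean TMM-scaled CPM of 14 libraries on the horizontal axis and the CV in percent on the vertical axis, both log. MALAT1 and NEAT1 have CVs of 17.7% and 17.3%, above the median of 8.96% for genes with a mean of 5 to 100 CPM. NONO has a CV of 2.49%, below the median of 7.19% for genes at 100 CPM or more.

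Counts of all genes were fitted together with edgeR's quasi-likelihood test, and a gene was called where its p, adjusted over the 16418 genes tested, was under 0.05. All 8 genes passed the filter on low counts. For a difference anywhere among the 7 groups, edgeR called 0 of the 8, where 1.57% of all genes were called. Of the 8, 3 had an unadjusted p under 0.05, against 16.8% of all genes, and DESeq2 called 3, against 8.57% of the 15781 genes to which it gave an adjusted p. Those 3 were NEAT1 (edgeR adjusted p = 0.101), PSPC1 (0.111) and MALAT1 (0.207) in both counts, and edgeR's adjusted p for the other 5 ran from 0.560 to 0.972. Against ctrl, SA1Q had 1 of 8 called lower (PSPC1), against 2.8% of all genes called and 1.74% called lower. At an unadjusted p under 0.05 there were 2 of 8 (21.2% of all genes). No gene of the 8 was called in SA2Q (0.0853% of all genes), SA1Q+gRNA (1.04%), SA2Q+gRNA (0.067%), SA1+gRNA (0.0426%) or SA2+gRNA (0.104%) against ctrl by edgeR. An unadjusted p under 0.05 was reached by 0 of 8 in SA2Q (8.86% of all genes), 0 in SA1Q+gRNA (13.9%), 1 in SA2Q+gRNA (10.1%, NEAT1), 0 in SA1+gRNA (10.7%) and 0 in SA2+gRNA (10.2%). The 2 libraries of a group lay wholly above or below those of ctrl for 5 of 8 genes in SA1Q (47% of all genes), 6 in SA2Q (38.6%) and 4 in SA1Q+gRNA (32.3%). That held for 4 of 8 in SA2Q+gRNA (39.8%), 3 in SA1+gRNA (36.1%) and 2 in SA2+gRNA (35.8%), so a lack of overlap alone was common.

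With against without guide, edgeR called 0 of the 8 and 0% of all genes in SA1Q and in SA2Q, with 2 of the 8 at an unadjusted p under 0.05 in each (MALAT1 and NEAT1), against 12.2% and 1.77% of all genes. Q against wild-type enzyme gave 0 of 8 in SA1 (0.962% of all genes called, 1 of the 8 at an unadjusted p under 0.05, as 17.4% of all genes) and 0 of 8 in SA2 (0.0122%, 0 of the 8 unadjusted against 7.86%). The 4 libraries of the SA1Q line, with and without guide, against the 4 of the SA2Q line gave 1 of 8, NEAT1, where 2.75% of all genes were called and 1.72% called lower. There 2 of 8 had an unadjusted p under 0.05, against 16.8% of all genes. The comparisons with ctrl share its 2 libraries and are not independent of each other. The median log2 change of the 8 lay between -0.10 (SA1Q against ctrl) and 0.05 (SA1+gRNA against ctrl) in these comparisons, and that of all genes between -0.0047 and 0.0097.

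NEAT1, the scaffold RNA (chr11:65190269-65194003 on hg19, plus strand, a non-coding gene listed with 1 entry of 3735 nucleotides, the short form), was lowest in SA1Q and highest in SA2Q+gRNA. Its levels were 37.1 and 55.3 CPM in ctrl, 34.9 and 33.5 CPM in SA1Q, 45.4 and 43.8 CPM in SA1Q+gRNA and 50.3 and 46.1 CPM in SA1+gRNA. In the ADAR2 lines they were 46.8 and 46.1 CPM for SA2Q, 61.4 and 53.5 CPM for SA2Q+gRNA and 56.2 and 50.6 CPM for SA2+gRNA. Both SA1Q libraries lay under all 12 others, and the ctrl pair was the widest, with replicate 1 close to SA1Q and replicate 2 among the ADAR2 lines. How many of all genes have SA1Q under all others was not computed.

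The 4 libraries of the SA1Q line (39.4 ± 6.0 CPM, SD, n = 4) lay below all 4 of the SA2Q line (52.0 ± 7.14 CPM, n = 4). The log2 change was -0.40 (SE 0.0978, 95% interval -0.61 to -0.19, edgeR adjusted p = 0.0414), so NEAT1 fell in SA1Q relative to SA2Q. Libraries of these lines did not overlap for 2 of the 8 genes, NEAT1 and SFPQ, against 11.9% of all genes. The call was lost in 7 of the 8 fits that left out a library of these groups, and the change then ran from -0.45 to -0.35 (adjusted p 0.0394 to 0.179). Of the blood list, PTPRC and CD3E stayed under 1 CPM throughout, while its summed level, nearly all LCP1 and CD68, was 122 to 142 CPM in the SA1Q line and 169 to 181 CPM in the SA2Q line. The part of that difference in the NEAT1 result was not tested. Fewer cells with a transcript and less of it per cell cannot be told apart in bulk RNA.

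Against ctrl, NEAT1 had a log2 change of -0.44 in SA1Q (SE 0.139, edgeR adjusted p = 0.0978), with no overlap between the groups. This value hung on which ctrl library was used. It was -0.69 without ctrl replicate 1 (adjusted p = 0.0109) and -0.11 without ctrl replicate 2 (adjusted p = 0.554). Over the other groups the change against ctrl ran up to 0.31 (SA2Q+gRNA, adjusted p = 0.467), with overlapping libraries. Leaving out ctrl replicate 1 made that value 0.06 and leaving out replicate 2 made it 0.63, while dropping SA2Q+gRNA replicate 1 gave 0.20, uncalled in each.

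With guide, NEAT1 was higher than without it in both Q lines, though not past the adjusted threshold. The log2 change was 0.38 in SA1Q (SE 0.139, edgeR adjusted p = 0.387) and 0.31 in SA2Q (SE 0.137, adjusted p = 1.0), and in both lines the 2 libraries with guide lay above the 2 without. In SA2Q it was 0.20 without SA2Q+gRNA replicate 1. Groups failed to overlap in this way for 5 of the 8 genes in SA1Q (38.8% of all genes) and 4 of the 8 in SA2Q (40.7% of all genes). Over both lines together, a comparison added after the values were seen, the change was 0.34 (SE 0.0977, unadjusted p = 0.00309, edgeR adjusted p = 0.804). The difference between the lines in this change was 0.07 (95% interval -0.34 to 0.49, edgeR adjusted p = 0.921).

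The 3735-nucleotide entry is the short form and overlaps the start of the long one, so its fragments come from either. The 1 entry that lies only in the long form is the microRNA gene MIR612, 17925 bases past the short end and 100 nucleotides long. It had 12 fragments as deposited over all 14 libraries, with 9 libraries at 0, beside 38565 fragments for the short-form entry. An entry shorter than a fragment gives no rate, and the long form is not quantified here.

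MALAT1 (chr11:65265233-65273939, plus strand, non-coding, 1 entry of 8707 nucleotides) was the least abundant of the 8, with 371 to 1804 fragments per library as deposited. The highest count is that of SA1+gRNA replicate 2, which is 902 when divided by 2, with 844 in the next library. It stood at 8.86 and 12.5 CPM in ctrl, 9.72 and 9.61 CPM in SA1Q and 10.3 and 7.93 CPM in SA2Q. With guide it stood at 14.3 and 12.6 CPM in SA1Q+gRNA, 13.5 and 11.5 CPM in SA2Q+gRNA, 12.1 and 14.9 CPM in SA1+gRNA and 12.1 and 11.8 CPM in SA2+gRNA. The 4 Q-line libraries without guide were all lower than the 8 libraries with guide, and ctrl had 1 library among each. For this split, too, the share of all genes was not computed.

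The log2 change with guide was 0.48 in SA1Q (SE 0.167, edgeR adjusted p = 0.387) and 0.46 in SA2Q (SE 0.166, adjusted p = 1.0), without overlap in either line. In SA2Q it was 0.27 without SA2Q replicate 2. Over both lines, in the comparison added later, MALAT1 was at 13.0 ± 1.20 CPM with guide and 9.40 ± 1.03 CPM without (SD, n = 4 each). That is a log2 change of 0.47 (SE 0.118, unadjusted p = 0.00128), which did not pass over all genes (edgeR adjusted p = 0.804). MALAT1 was the only 1 of the 8 whose groups did not overlap here, against 2.65% of all genes. None of the 8 was called, 0% of all genes were, and 2 of the 8 had an unadjusted p under 0.05, against 5.66% of all genes. The change differed between the lines by 0.02 (95% interval -0.48 to 0.52). MALAT1 differed by -0.01 between Q and wild-type enzyme in SA1 and by 0.07 in SA2 (adjusted p = 0.976 and 0.962), values whose sign changed when single libraries were left out, and all 4 of those groups had guide.

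**Figure D3:**
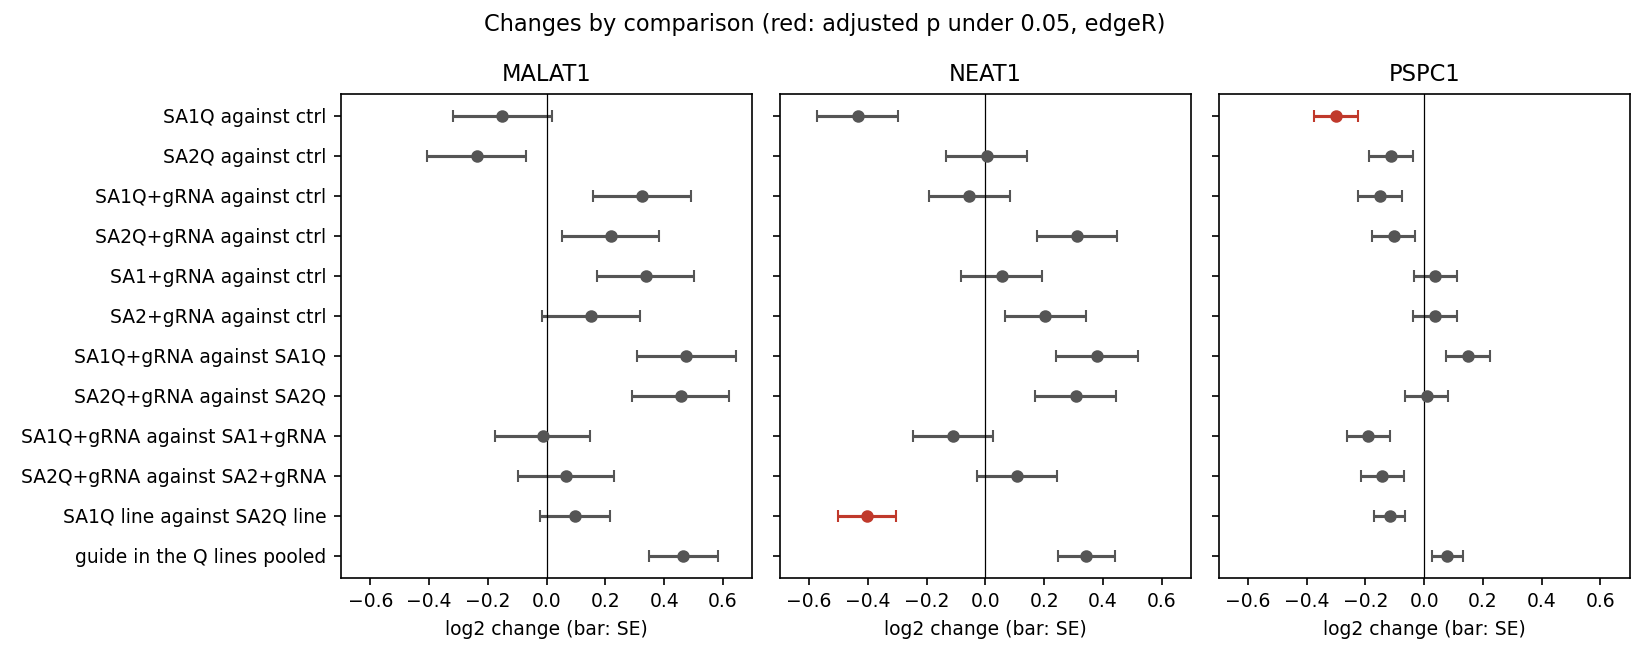
Points are log2 changes of MALAT1, NEAT1 and PSPC1 in the 11 comparisons and in both Q lines pooled, first-named group minus second, with bars of 1 SE, and red marks an adjusted p under 0.05. Red are NEAT1 between the Q lines (-0.40) and PSPC1 in SA1Q against ctrl (-0.30). MALAT1 and NEAT1 are above 0 with against without guide in each Q line, none of them red. The pooled value was added after the values were seen and comes from the same libraries, so it is no separate evidence.

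PSPC1 (chr13:20277009-20357159, minus strand, 2015 nucleotides), a partner of NONO and SFPQ, was lowest in the SA1Q line and highest in the wild-type enzyme lines and ctrl. It was at 86.7 and 82.1 CPM in ctrl, 69.1 and 67.9 CPM in SA1Q, 77.8 and 74.2 CPM in SA1Q+gRNA and 87.3 and 86.1 CPM in SA1+gRNA. In the ADAR2 lines it was at 75.8 and 80.3 CPM for SA2Q, 79.3 and 77.7 CPM for SA2Q+gRNA and 88.1 and 85.1 CPM for SA2+gRNA. Every library with a Q form lay below every library of ctrl, SA1+gRNA and SA2+gRNA. This split was seen in the values and not tested, and the share of all genes that show it was not computed.

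Between SA1Q (68.5 ± 0.804 CPM) and ctrl (84.4 ± 3.28 CPM, SD, n = 2 each) PSPC1 fell by 0.30 on the log2 scale (SE 0.0747, 95% interval -0.46 to -0.14, edgeR adjusted p = 0.0456). The call was lost without ctrl replicate 1 (-0.26, adjusted p = 0.135), without either SA1Q library (-0.31 and -0.28, adjusted p = 0.217 and 0.187), without the filter on low counts (adjusted p = 0.0559) and with the longest entry (-0.25, adjusted p = 0.0795). The fibroblast list summed to 8.81 to 8.94 CPM in ctrl and 5.60 to 5.75 CPM in SA1Q through COL1A1, with COL1A2, DCN, LUM and PDGFRB under 1 CPM in every library. The blood list summed to 159.7 to 161.4 and 130.1 to 141.5 CPM, with PTPRC and CD3E under 1 CPM. The part of LCP1, CD68 and COL1A1 in the result was not tested.

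In the other comparisons PSPC1 did not pass. Q against wild-type enzyme gave log2 changes of -0.19 in SA1 (SE 0.0743, edgeR adjusted p = 0.211) and -0.14 in SA2 (SE 0.0743, adjusted p = 0.688), both without overlap, as for 4 of the 8 genes in SA1 (41.7% of all genes) and 3 of the 8 in SA2 (47.8% of all genes). On the longest entry the SA2 value was -0.06. The difference between these changes was -0.05 (95% interval -0.27 to 0.18, adjusted p = 0.908). With against without guide, PSPC1 differed by 0.15 in SA1Q (adjusted p = 0.425) and by 0.01 in SA2Q (adjusted p = 1.0).

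PSPC1 has 3 entries in the tables, which share exons and so fragments. The 2422-nucleotide entry, a non-coding model that reaches further downstream, held 78.5% to 86.9% as many fragments as the 2015-nucleotide one. That share averaged 83.3% in ctrl, 86.1% in SA1Q and 80.7% in SA2+gRNA. On the long entry the levels were 71.6 and 69.0 CPM in ctrl and 59.1 and 58.8 CPM in SA1Q, again without overlap. The difference was smaller there than on the main entry.

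**Figure D4:**
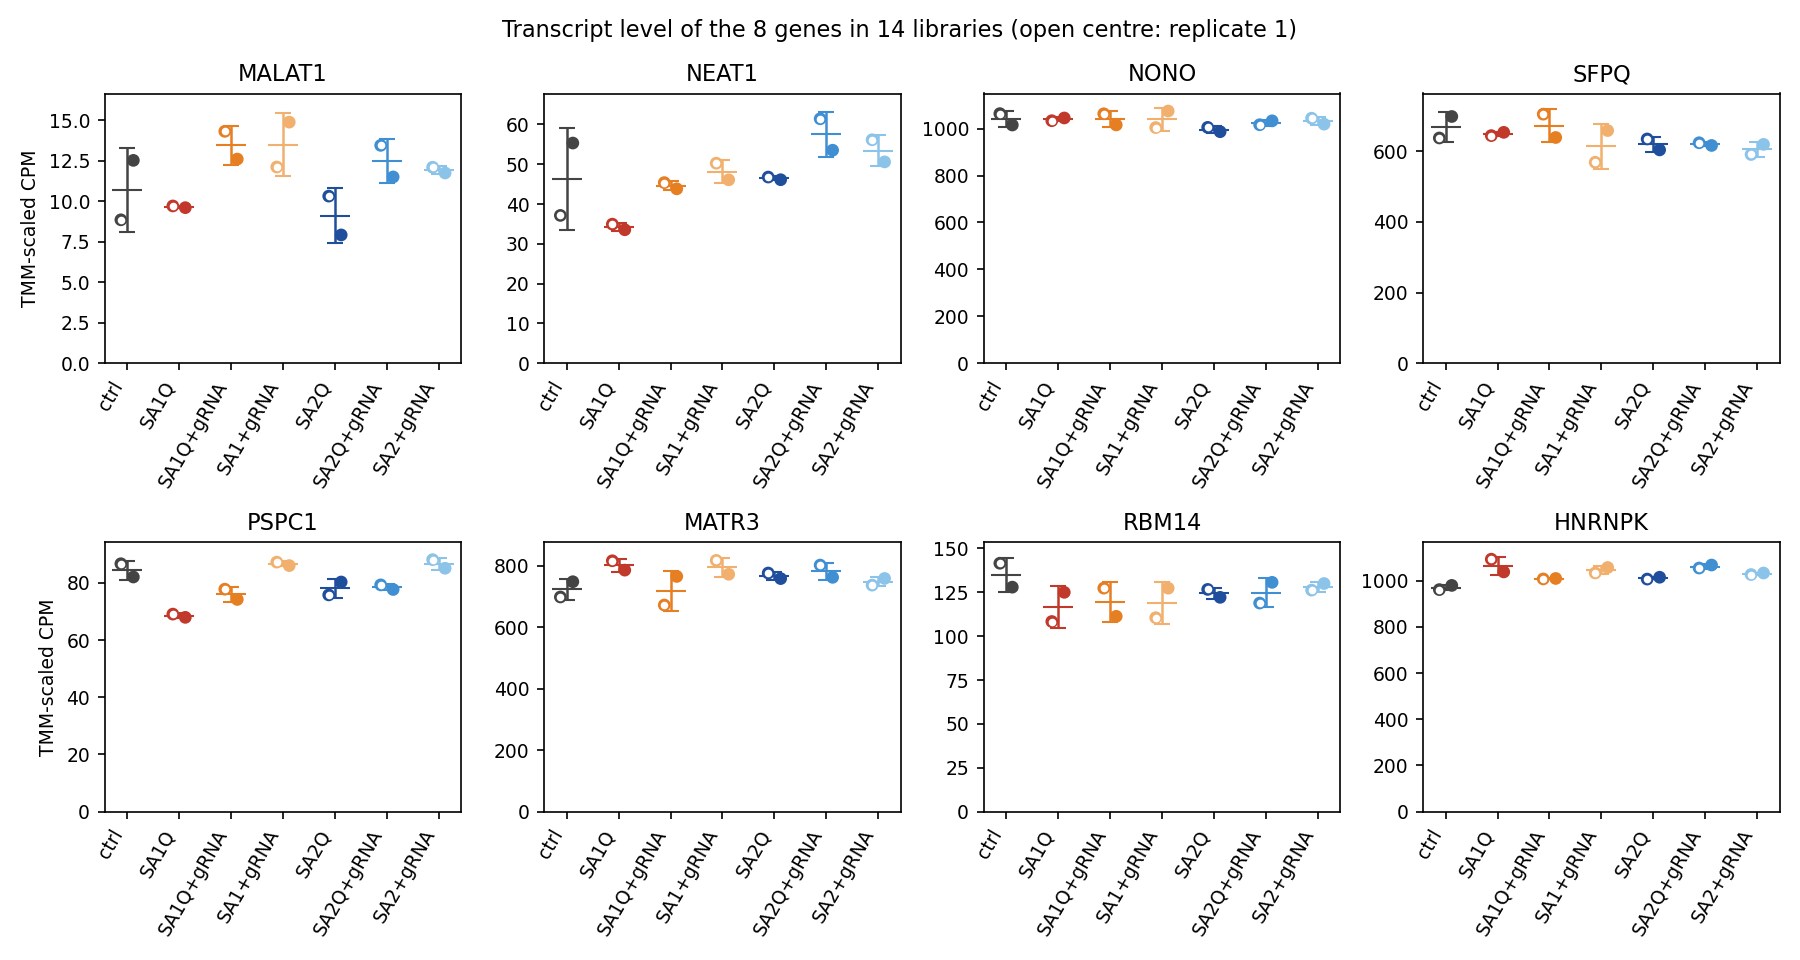
TMM-scaled CPM of each gene by group, from 0. Points are libraries (open centre for replicate 1), horizontal marks are means and bars are SD with n = 2. PSPC1 and NEAT1 are lowest in SA1Q, while NONO stays between 987 and 1075 CPM in every library.

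NONO (chrX:70503042-70521018, plus strand, 3218 nucleotides), which forms dimers with SFPQ and PSPC1, was the most even gene of the set. It stood at 1064 and 1016 CPM in ctrl, 1034 and 1046 CPM in SA1Q, 1064 and 1016 CPM in SA1Q+gRNA and 1005 and 1075 CPM in SA1+gRNA. The ADAR2 lines held 1006 and 987 CPM (SA2Q), 1017 and 1034 CPM (SA2Q+gRNA) and 1045 and 1019.5 CPM (SA2+gRNA). The SA2Q pair was lowest and did not overlap ctrl, and 5 of the 6 neighbouring steps in the order of groups overlapped. Its smallest p was in SA2Q against ctrl (log2 change -0.06, SE 0.0667, 95% interval -0.20 to 0.08, edgeR adjusted p = 0.852). Dropping ctrl replicate 1 gave -0.03, and dropping replicate 2 of ctrl gave -0.09.

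SFPQ (chr1:35649201-35658743, minus strand, 3073 nucleotides), a splicing factor essential for paraspeckles, was at 638 and 698 CPM in ctrl, 644 and 653.5 CPM in SA1Q, 705 and 639 CPM in SA1Q+gRNA and 569 and 659 CPM in SA1+gRNA. It was at 635 and 604 CPM in SA2Q, 624 and 616 CPM in SA2Q+gRNA and 591 and 619 CPM in SA2+gRNA. All 6 libraries of the ADAR2 lines lay under both ctrl libraries, while the ADAR1 lines overlapped ctrl. How many of all genes do the same was not computed. The smallest p was in SA2+gRNA against ctrl (log2 change -0.14, SE 0.0833, edgeR adjusted p = 0.602), and it was -0.08 without ctrl replicate 2. Between the SA1Q and SA2Q lines SFPQ differed without overlap by 0.09 (95% interval -0.03 to 0.22, adjusted p = 0.468), or by 0.06 without SA1Q+gRNA replicate 1.

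MATR3 (chr5:138609441-138667366, plus strand, 5604 nucleotides), the matrix protein gene, was at 698 and 748 CPM in ctrl, 816 and 785 CPM in SA1Q, 672 and 765 CPM in SA1Q+gRNA and 817 and 772 CPM in SA1+gRNA. It was at 776 and 758 CPM in SA2Q, 802 and 762 CPM in SA2Q+gRNA and 736.5 and 758 CPM in SA2+gRNA. Its lowest libraries were SA1Q+gRNA replicate 1 and ctrl replicate 1, which also stood apart over all genes. The smallest p was in SA1Q+gRNA against SA1Q (log2 change -0.16, SE 0.0768, edgeR adjusted p = 0.420). That change was -0.07 without SA1Q+gRNA replicate 1 and -0.26 without SA1Q+gRNA replicate 2. Each of these fits leaves 1 library in SA1Q+gRNA, in the second the 1 that stood apart.

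RBM14 (chr11:66384053-66397397, plus strand, 5407 nucleotides), a coactivator with a prion-like domain, was at 141.5 and 127.9 CPM in ctrl, 108 and 125 CPM in SA1Q, 127 and 111 CPM in SA1Q+gRNA and 110.5 and 127 CPM in SA1+gRNA. It was at 127 and 122 CPM in SA2Q, 119 and 131 CPM in SA2Q+gRNA and 126 and 130.0 CPM in SA2+gRNA. Its mean was below ctrl in 6 of 6 groups, none of them called, and every neighbouring step of the order overlapped. These 6 comparisons share the ctrl libraries, and how many of all genes do the same was not computed. The smallest p was in SA1Q against ctrl (log2 change -0.21, SE 0.1005, edgeR adjusted p = 0.251). It was -0.11 without SA1Q replicate 1 and -0.13 without ctrl replicate 1.

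HNRNPK (chr9:86582998-86595569, minus strand, 2978 nucleotides), an RNA-binding protein that acts on the 3′ end choice of NEAT1, was lowest in ctrl. It stood at 962 and 980.1 CPM in ctrl, 1094 and 1038.5 CPM in SA1Q, 1008 and 1010.2 CPM in SA1Q+gRNA and 1034 and 1058 CPM in SA1+gRNA. In SA2Q it was at 1007 and 1015 CPM, in SA2Q+gRNA at 1055 and 1068 CPM and in SA2+gRNA at 1027 and 1034 CPM. All 12 libraries with a transgene lay above both ctrl libraries, by a log2 change of 0.06 to 0.13, and none of these changes was called. These comparisons share the same ctrl libraries, and the share of all genes that split in this way was not computed. The smallest p was in SA1Q against ctrl (0.13, SE 0.0632, edgeR adjusted p = 0.236).

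Several of these genes share sequence with neighbours or copies, and the sources used here do not give the authors' counting of such fragments. MATR3 overlaps the snoRNA host gene SNHG4, whose entry held 1.4% to 2.9% as many fragments. RBM14 shares its start with the readthrough gene RBM14-RBM4, whose 1614-nucleotide entry held 69.3% to 85.8% as many fragments as RBM14, so its counts are uncertain. Its shorter entries of 4053 and 3942 nucleotides held 50.0% to 55.8% and 44.2% to 50.5%. HNRNPK has processed pseudogenes and is uncertain on that account, and its other entries held at least 99.76% as many fragments as the main one.

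The other paraspeckle proteins were followed as a list of 28 genes, all tested. Over the 7 groups 1 was called by edgeR, HNRNPA1, a splicing repressor with many pseudogenes (adjusted p = 0.00995), against 1.57% of all genes. That call was lost without SA2+gRNA replicate 1 (adjusted p = 0.0533). An unadjusted p under 0.05 was reached by 5 of the 28, against 16.8% of all genes, and DESeq2 called 4, against 8.57%. HNRNPA1 was at 2486 and 2368 CPM in SA1+gRNA and 2537 and 2461 CPM in SA2+gRNA, and at 1784 to 2205 CPM in the other 10 libraries. It was lower in SA1Q+gRNA than in SA1+gRNA by a log2 change of -0.37 (SE 0.0688, edgeR adjusted p = 0.0228). This call was lost without either SA1+gRNA library (adjusted p = 0.238 and 0.109).

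HNRNPH3, a relative of the paraspeckle splicing factor HNRNPH1, was at 194 and 209 CPM in ctrl and at 221 to 285 CPM in the other 12 libraries, without overlap. The share of all genes that split in this way was not computed. HNRNPH3 rose in SA1Q (log2 change 0.44, SE 0.0846, edgeR adjusted p = 0.0166) and in SA1Q+gRNA (0.38, SE 0.0846, adjusted p = 0.0462) against ctrl. Without ctrl replicate 1 neither was called (adjusted p = 0.0564 and 0.103). The SA1Q call was also lost without either SA1Q library (0.0651 and 0.134), and the SA1Q+gRNA call without ctrl replicate 2 (0.0536) or SA1Q+gRNA replicate 2 (0.0929). AKAP8L, a nuclear anchoring protein gene, was higher in SA1Q+gRNA (149 and 112 CPM) than in SA1+gRNA (86.4 and 93.3 CPM), by 0.54 (SE 0.108, edgeR adjusted p = 0.0322). Without SA1Q+gRNA replicate 1, 1 of the libraries that stood apart, this was 0.31 (adjusted p = 0.240), and the call was also lost without either SA1+gRNA library (0.315 and 0.118). The SA1Q line had AHDC1 called lower than the SA2Q line (-0.36, SE 0.0877, edgeR adjusted p = 0.0408), a gene named after its values were seen. That call was lost in 6 of the 8 fits that left out a library of these groups (-0.44 to -0.28, adjusted p 0.0423 to 0.191). In all, 1 of 28 was called in SA1Q against ctrl (2.8% of all genes), 1 in SA1Q+gRNA against ctrl (1.04%), 2 in SA1Q+gRNA against SA1+gRNA (0.962%), 1 between the Q lines (2.75%) and 0 in the other 7 comparisons.

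Over the 7 groups edgeR called 1.57% of all genes and DESeq2 8.57%, and 16.8% had an unadjusted edgeR p under 0.05. Nuclear speckle proteins had 0 of 12 in each of these counts. PNN, a speckle-associated splicing regulator, had the smallest p (edgeR adjusted p = 0.408), followed by the splicing factors SRSF2 (0.424) and SRSF5 (0.473). With against without guide in both Q lines pooled, these 3 of 12 had an unadjusted p under 0.05, against 5.66% of all genes. In SA1Q alone it was 3 of 12, SRSF1, SRSF2 and SRSF5 (12.2% of all genes), and in SA2Q alone 1 of 12, PNN (1.77%), none called. Of the nuclear long non-coding RNAs 6 of 7 were tested and 0 called over the 7 groups by edgeR or DESeq2, 1 at an unadjusted p under 0.05. That was TUG1 (edgeR adjusted p = 0.265), at 148 to 222 CPM, with PVT1 (0.322) and LINC-PINT (0.364) next. MEG3 did not pass the filter on low counts. Transcripts known for paired inverted Alu repeats in their 3′ untranslated regions, which paraspeckles can retain, had 4 of 5 tested. None was called by edgeR or DESeq2 and 0 had an unadjusted p under 0.05, and the smallest p values were those of NICN1 (edgeR adjusted p = 0.518), MDM2 (0.586) and XIAP (0.798).

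Across the 14 libraries the 8 genes did not move as 1 block. Pearson's r of log2 CPM, a description over libraries that share groups and depth, was highest for MATR3 with HNRNPK (0.64), NEAT1 with PSPC1 (0.56) and MALAT1 with NEAT1 (0.53) among the 28 pairs. It was lowest for MATR3 with RBM14 (-0.67). Without the 2 libraries that stood apart these became 0.55, 0.75, 0.52 and -0.69 over 12 libraries. NONO, SFPQ and PSPC1, whose proteins pair with each other, had r of 0.44 (NONO with SFPQ), 0.08 (NONO with PSPC1) and -0.35 (SFPQ with PSPC1).

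Among the genes with a mean of at least 5 CPM, those most like PSPC1 over 14 libraries were the ribosomal protein gene RPL13A (r = 0.97), its pseudogene RPL13AP5 (0.97) and the elongation factor gene EEF1G (0.96), and the same 3 led over 12 libraries. MALAT1 was most like ZNF317 (0.91), CTCF (0.79) and SRSF5 (0.79), and NEAT1 most like CNNM2 (0.83), CLK2 (0.80) and CNPY4 (0.80). For NONO these were TRIB1 (0.79), UBE2M (0.77) and PDCD2 (0.75), and for SFPQ GNB3 (0.92), HDAC10 (0.91) and NDOR1 (0.91). MATR3 ran with RAD51AP1 (0.96), XPR1 (0.95) and BLTP3B (0.93), of which BLTP3B had an r of 0.78 over 12 libraries and XPR1 of 0.85. RBM14 ran with MAFK (0.96), LLGL1 (0.92) and MED16 (0.91), and HNRNPK with BAG4 (0.89), PALB2 (0.87) and RTRAF (0.87). Of these 24 genes, 8 were still among the 3 most alike over 12 libraries, and the others fell as far as rank 246 (BLTP3B). They were picked as the highest r among 11273 genes compared, so high values come partly from the picking. The 99th percentile of r over 14 libraries ran from 0.59 (MALAT1) to 0.86 (MATR3).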

How the data were processed

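Per the labels' protocols, polyadenylated RNA of 14 libraries was sequenced paired-end with a stranded kit. The tools named in the submitters' processing notes are STAR 2.4.2a and Trim Galore, and the build is hg19. The deposited fragment counts of 46830 RefSeq transcripts were tested. The FPM signal and the FPKM, scaled by the authors per the file headers to library total and transcript size, served to choose 1 transcript per gene (highest mean FPM) and as a check. Names came from RefSeq (GRCh38.p14) and GENCODE for 98.6% of 45595 accessions. Entries without a name (887, 0.81% of counts) and under 200 nucleotides (2309) were left out. Counts were fitted over all libraries with edgeR 4.0.16 in R 4.3.3 (TMM, filterByExpr with a minimum count of 10, quasi-likelihood, two-sided, 7 residual degrees of freedom), and p-values were adjusted by Benjamini and Hochberg. SE were taken from the quasi-likelihood statistic. The common biological coefficient of variation was 8.67%. Alternatives included DESeq2 1.42.0. The members and lists were chosen with earlier results of these data known. Named were the 8 genes, the 3 of each list with the smallest p over the groups and the 3 most alike by r (offset 0.5 CPM). Replicate numbers were not taken to pair the libraries, though those of ctrl and SA1Q+gRNA deviated together. Intervals are at the 95% level, from the SE and the test's degrees of freedom. A marker of the blood cell list is not reported here and was left out of its sums.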

Additional observations from a re-analysis of the deposited data

How the results depend on the processing

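Of 26 changes of the 8 genes recomputed, 21 kept their sign under every alternative run. The other 5, none called, were near 0. MALAT1 between Q and wild-type enzyme was 0.0442 in SA1 with the length offset and -0.15 to 0.15 leaving out 1 library, and -0.0541 to 0.17 in SA2. PSPC1 with guide in SA2Q was -0.0045 with the offset and -0.0330 to 0.0487 leaving out 1. The difference between lines in the guide change was -0.0237 to 0.17 for NEAT1 and -0.18 to 0.20 for MALAT1 leaving out 1, and -0.0742 for MALAT1 without both libraries that stood apart. Over the 7 groups the members called were 0 by edgeR (258 of all genes, 1.57%) and 1 without the filter on low counts (716 of all genes). They were 3 with DESeq2 (1352 of all genes, 8.57%) and 2 with an offset for transcript length (643 of all genes). These alternatives thus also called more genes outside the 8. For SA1Q against ctrl the members called were 1 by edgeR (460 of all genes) and 0 without the filter (631). They were 2 with DESeq2 (1064), 2 with the length offset (947) and 0 with the longest transcript (458). Leaving out 1 library gave 0 to 1 in SA1Q+gRNA against SA1Q and 0 to 1 between the Q lines. With a replicate block, PSPC1 in SA1Q against ctrl (adjusted p = 0.0660) and NEAT1 between the Q lines (0.0613) were not called, so 0 members were called in each. Same-numbered libraries deviated together (r over 0.1) in 2 of 21 pairs of groups, ctrl with SA1Q+gRNA (r = 0.44) and SA1+gRNA with SA1Q (0.12). The numbers were therefore not taken to pair the libraries of all groups. Why replicate 1 of ctrl and of SA1Q+gRNA deviated together was not tested. The block changed genes called over the 7 groups from 258 to 160, SA1Q against ctrl from 460 to 304, SA1Q+gRNA against SA1+gRNA from 158 to 94 and SA2Q+gRNA against SA2+gRNA from 2 to 1.

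PSPC1 in SA1Q against ctrl kept its direction in 12 of 12 alternatives and its call in 6, and NEAT1 between the Q lines in 16 of 16 and 8. NEAT1 in SA1Q against ctrl was called in 4 of 12, among them DESeq2 (adjusted p = 0.0387), the length offset (0.0465) and without both libraries (0.00090). Over the 7 groups, without both libraries, the adjusted p was 0.00036 for NEAT1, 0.0164 for PSPC1 and 0.0361 for MALAT1. The causes were not tested.

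Genes called over the 7 groups (258) were 716 without the filter, 1352 with DESeq2, 1831 without both libraries, 643 with the length offset and 91 to 1057 leaving out 1 library. SA1Q against ctrl (460) gave 1064 with DESeq2, 1218 without both, 947 with the offset and 38 to 821 leaving out 1. SA2Q against ctrl (14) gave 41 without the filter, 91, 569, 46 and 2 to 28 in that order. SA1Q+gRNA against ctrl (171) gave 271 without the filter, 478 with DESeq2, 437 with the offset and 149 to 463. SA2Q+gRNA against ctrl (11) gave 30, 101, 850, 37 and 2 to 13. SA1+gRNA against ctrl (7) gave 40, 101, 382, 23 and 4 to 22. SA2+gRNA against ctrl (17) gave 63, 132, 473, 45 and 2 to 29. SA1Q+gRNA against SA1Q (0) gave 1 without the filter and 0 to 2115. SA1Q+gRNA against SA1+gRNA (158) gave 381, 586 with DESeq2, 485 with the offset and 17 to 2082. SA2Q+gRNA against SA2+gRNA (2) gave 15, 57, 119, 16 and 1 to 5. The Q lines (452) gave 802 with DESeq2, 1959 without both, 778 with the offset and 85 to 735, and the pooled guide comparison (0) gave 0 to 93. Where a group was left with 1 library, it was assumed to vary like the other groups. MALAT1 counts of 371 to 902 fragments, with those of the even library divided by 2, limit it most by depth.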
